A study of Mus musculus with 288 samples.

Results

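Ly6a, Ly75, Kit, Trpm1, Aqp3 and Ptp4a2, a set of genes for membrane proteins, were followed cell by cell in mouse embryonic stem cells (mESCs) that left 2i culture. They are 6 of the 54232 genes of the count table and were chosen on their mean levels, which showed some of the largest falls after release, so their lower means at 24 h and 48 h are a description of that choice and were not tested. All cells were labelled as the line E14, strain 129/Ola, an established line that the study traces to a report of HPRT-deficient mice, grown on gelatine-coated plastic. At 0 h (label D0) they were in serum-free N2B27 medium with LIF, the MEK inhibitor PD0325901 at 1 µM and the GSK3 inhibitor CHIR99021 at 3 µM, and at 24 h (D1) and 48 h (D2) in serum with LIF and neither inhibitor. LIF was thus present at all 3 times. RNA was read from sorted single cells whose DNA went to methylation and accessibility assays (scNMT-seq), with 96 wells of 1 plate for each label. Each label is therefore 1 sample, cells of it are not replicates of the condition, and no difference between times was tested. Culture time and plate cannot be told apart.

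In 2i, inhibition of MEK and GSK3 holds mESCs in the naive state, which resembles the inner cell mass before implantation, and in serum with LIF the ERK pathway becomes active and cells become more heterogeneous. The 6 genes code for surface or membrane-bound proteins of unrelated families. Ly6a codes for Sca-1, a small protein held in the outer leaflet by a GPI anchor and used as a surface marker of blood stem cells. Ly75 codes for DEC-205, an endocytic receptor of the mannose receptor family known from dendritic cells and thymic epithelium. Kit codes for the receptor tyrosine kinase of stem cell factor, with roles in germ cells, blood and melanocytes. Trpm1 and Aqp3 code for channels, the first a cation channel of melanocytes and retinal bipolar cells and the second a pore for water and glycerol. Ptp4a2 codes for PRL-2, a phosphatase that a prenyl group attaches to the inner face of membranes.

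Of 288 wells, 233 passed the filter of more than 200000 reads, more than 2000 detected genes and a mitochondrial fraction under 0.15, namely 90 cells of D0, 50 of D1 and 93 of D2. Reads per passing cell lay between 255040 and 10073010 for D0, 202157 and 43336922 for D1, and 491549 and 9812323 for D2. With each cell thinned to 200000 reads, the median D0 cell held 7794 detected genes, the median D1 cell 8035 and the median D2 cell 3945, so D2 cells held fewer genes at equal depth. The D1 plate stood apart from both others. Hprt, a purine salvage enzyme on the X chromosome, had reads in 48 of 50 D1 cells, 9 of 90 D0 cells and 7 of 93 D2 cells, and reads of 4 Y-linked genes were found in 48, 3 and 5 cells. Whether the D1 cells are another line or subclone was not tested, so in each D1 over D0 ratio the time since release, the plate and the source of the cells cannot be told apart. D1 values are given beside those of D2, which was like D0 in Hprt. All 6 markers of embryonic stem cells had reads in every label. Their median sums were 4568, 5037 and 8382 CPM (reads of a gene scaled to 1000000 reads of the cell) in D0, D1 and D2. These sums rest largely on Dppa5a, the highest of the 6, with means of 2680, 4483 and 6841 CPM. Pou5f1 had means of 502, 633 and 1524 CPM and Zfp42 896, 362 and 1281 CPM. Nanog had 489, 67.2 and 268 CPM and Esrrb 198, 44.3 and 130 CPM. Sox2 was also lower in D1 and D2 than in D0. The sums thus do not show how each marker changed.

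The genes lie apart on GRCm38, except that Aqp3 and Ptp4a2 share chromosome 4. In the GENCODE M21 annotation Ly6a spans chr15:74994877-74998031 (minus strand), Ly75 chr2:60292103-60383303 (minus), Kit chr5:75574916-75656722 (plus), Trpm1 chr7:64153835-64269775 (plus), Aqp3 chr4:41092722-41098183 (minus) and Ptp4a2 chr4:129811219-129850003 (plus). Exons of Ly75 overlap Gm13571 and exons of Trpm1 overlap Gm44722 on the opposite strand, so that reads of these pairs cannot be told apart without strand. RefSeq promoter windows (GRCm38.p6, from 250 bases before to 50 after the start) were at hand for Ly75, Kit, Trpm1, Aqp3 and Ptp4a2, in 7 windows. The windows of Ptp4a2, Aqp3 and Trpm1 are shown because they cover the range of CpG density among these 5 genes, with each CpG dinucleotide in capitals, 5′ to 3′ on the strand of the gene. The 2 windows of Trpm1 belong to different annotated starts.
Ptp4a2, chr4:129820229-129820528, plus strand: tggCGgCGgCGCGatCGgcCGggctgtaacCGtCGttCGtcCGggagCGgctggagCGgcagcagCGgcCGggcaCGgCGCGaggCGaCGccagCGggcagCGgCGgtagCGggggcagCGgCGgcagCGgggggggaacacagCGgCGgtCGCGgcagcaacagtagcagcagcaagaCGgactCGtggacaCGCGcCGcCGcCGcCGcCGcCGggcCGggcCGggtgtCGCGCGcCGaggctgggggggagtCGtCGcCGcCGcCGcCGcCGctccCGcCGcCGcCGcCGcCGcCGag
Aqp3, chr4:41098134-41098433, minus strand: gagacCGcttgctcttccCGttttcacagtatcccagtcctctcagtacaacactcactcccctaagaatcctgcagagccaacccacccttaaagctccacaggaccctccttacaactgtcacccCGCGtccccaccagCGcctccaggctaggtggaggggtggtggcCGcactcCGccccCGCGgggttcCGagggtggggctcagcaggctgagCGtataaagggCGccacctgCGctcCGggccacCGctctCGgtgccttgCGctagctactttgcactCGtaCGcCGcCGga
Trpm1, chr7:64153585-64153884, plus strand: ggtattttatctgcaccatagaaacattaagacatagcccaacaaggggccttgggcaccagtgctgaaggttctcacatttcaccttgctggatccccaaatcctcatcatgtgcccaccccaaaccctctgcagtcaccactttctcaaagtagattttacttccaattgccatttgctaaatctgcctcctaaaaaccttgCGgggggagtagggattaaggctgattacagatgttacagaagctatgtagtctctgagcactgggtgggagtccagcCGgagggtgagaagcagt
Trpm1, chr7:64185209-64185508, plus strand: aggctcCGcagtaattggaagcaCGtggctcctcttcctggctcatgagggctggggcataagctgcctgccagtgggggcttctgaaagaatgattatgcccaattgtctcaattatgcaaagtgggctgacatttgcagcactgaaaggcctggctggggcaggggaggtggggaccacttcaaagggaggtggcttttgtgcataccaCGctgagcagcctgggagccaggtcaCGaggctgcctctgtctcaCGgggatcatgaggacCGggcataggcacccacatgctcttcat
The Ptp4a2 window holds 60 CpGs, more than 99.9% of the 32841 promoter windows, whose median is 7. The windows of Aqp3 and Ly75 hold 21 each, and those of Kit 20 and 21, above 73.5% to 75.2% of all windows. The Trpm1 windows hold 2 and 6, more than 14.1% and 43.6% of all windows. The promoters thus differ widely in CpG density.

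Motifs were searched on both strands of the windows, with letters chosen after the levels were known. The M-box TCATGTG, a site read by MITF in melanocyte genes, occurs at -142 from the first Trpm1 start and in 3.77% of all windows. The E-box CACGTG, whose letters do not overlap the M-box, occurs at -229 from the second Trpm1 start and in 7.15% of all windows. A TATAAA lies at -29 of the Aqp3 start, against 13.6% of all windows with one anywhere. The KLF motif CCACCC was in 5 of the 7 windows and in 31.5% of all. The Kit windows overlap almost wholly, and their match, at -208 and -212 from the respective starts, is the same site counted in both. The 5 windows are thus not independent, and no excess is read from them. The motifs TCAAGGTCA (ESRRB), TTCNNNGAA (STAT) and CTTTGAT (TCF) were in none of the 7, against 0.423%, 8.30% and 3.73% of all windows. A match is a run of letters and no evidence of binding.

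In D0 cells all 6 genes were well detected, and Ly6a was the most abundant per length. Mean levels per kilobase of exon were 280 CPM for Ly6a, 148 for Ptp4a2, 144 for Aqp3, 49.99 for Kit, 46.1 for Ly75 and 12.5 for Trpm1. The neighbours Ptp4a2 and Aqp3, and Kit and Ly75, differed by far less than the spread between cells. At equal depth of 200000 reads, 68 of 90 D0 cells had a read of all 6 genes, 19 had 5 and 1 had 4. The other 2 cells had 2 of the 6, and they were cells of few genes, 3875 and 2342 on all reads.

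Ly6a varied widely between D0 cells, as did Trpm1, with SDs of 95.8% and 92.5% of the mean. The Ly6a level ran from 0 over a median of 262 to 1681 CPM in D0, with a mean of 338 ± 323 (SD between cells, n = 90 cells). In D1 the lowest and median were 0 and the highest 39.9 CPM, with a mean of 1.49 ± 6.51 (n = 50 cells), and in D2 the lowest and median were 0 and the highest 136 CPM, with a mean of 4.23 ± 19.2 (n = 93 cells). Without the highest cell of each label the means were 0.711 CPM in D1 and 2.80 CPM in D2. The ranges overlap, since 10 D0 cells had no read of Ly6a and others had low levels, but the D0 median lies above the highest cell of D1 and of D2. On the scale of log2(mean CPM + 10), used for all log2 ratios here, the D1 over D0 ratio was -4.92, the largest fall of 10494 genes compared, those detected in 50% or more of the cells under 1 label or the other. The D2 over D0 ratio was -4.61, the second of 8822. Thinned to equal depth, 80 of 90 D0 cells (88.9%, exact Clopper-Pearson 95% interval 80.5 to 94.5), 3 of 50 D1 cells (6%, 1.25 to 16.5) and 8 of 93 D2 cells (8.60%, 3.79 to 16.2) had a read. These intervals, here and below, treat the cells of a label as independent draws. They cover error in counting cells only, and no variation between cultures or plates. Reads carried no molecular identifiers.

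Ly75 was present in nearly every D0 cell. Its D0 level ran from 0 over a median of 301 to 825 CPM, with a mean of 318 ± 178 CPM. In D1 it ran from 0 over 0 to 32.1 CPM (mean 4.35 ± 8.60), and in D2 from 0 over 0 to 1233 CPM (mean 25.6 ± 136). The highest D2 cell exceeded every D0 cell and held 51.7% of the D2 sum, and the mean of the remaining D2 cells was 12.5 CPM. The log2 ratio over D0 was -4.51 in D1, and -3.20 in D2 or -3.87 when that D2 cell was left out. At equal depth 98.9% of D0 cells (93.96 to 99.97), 28% of D1 cells (16.2 to 42.5) and 10.8% of D2 cells (5.28 to 18.9) had a read. The D1 share of Ly75 ran from 6% with 5 reads required to 45.8% in plate columns 1 to 6, and was 11.5% in columns 7 to 12.

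Kit was found at low levels in part of the D1 cells, with a read in 25 of 50 on all reads. It ran from 0 over a median of 395 to 1646 CPM in D0 (mean 445 ± 272), from 0 over 0.243 to 100.3 CPM in D1 (mean 18.2 ± 29.1) and in D2 from 0 over 0 to 755 CPM (mean 13.1 ± 87.5). At equal depth 44% of D1 cells (29.99 to 58.7) had a Kit read, against 97.8% of D0 cells (92.2 to 99.7) and 10.8% of D2 cells (5.28 to 18.9). Over all settings the D1 share ran from 28% to 50% and the D2 share from 4.26% to 17.4%. No D1 cell reached 282 CPM, the 25th percentile of D0. The log2 ratios over D0 were -4.01 in D1 and -4.30 in D2. A lone cell held 61.8% of the D2 sum, without which the D2 mean was 5.08 CPM and the ratio -4.92.

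Trpm1 came closest to absence. It ran from 0 over a median of 161 to 718 CPM in D0, with a mean of 185 ± 171 CPM, and 11 of 90 D0 cells had no read. In D1 the only cell with reads stood at 24.8 CPM, and in D2 the only such cell stood at 3.17 CPM from 6 reads. The means of 0.496 and 0.0341 CPM thus rest on 1 cell each. At equal depth the shares were 85.6% in D0 (76.6 to 92.1), 2% in D1 (0.0506 to 10.6) and 1.08% in D2 (0.0272 to 5.85). The log2 ratios over D0 were -4.21 in D1 and -4.28 in D2, values that the 10 CPM added to both means holds close to those of the other genes.

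Aqp3 was in all but 2 D0 cells, from 0 over a median of 241 to 915 CPM, with a mean of 264 ± 191 CPM. In D1 it ran from 0 over 0 to 65.7 CPM (mean 4.80 ± 12.1) and in D2 from 0 over 0 to 213 CPM (mean 5.24 ± 27.6), and the D2 mean was 2.98 CPM without its highest cell. The log2 ratios over D0 were -4.21 and -4.17. At equal depth 97.8% of D0 cells (92.2 to 99.7), 18% of D1 cells (8.58 to 31.4) and 8.60% of D2 cells (3.79 to 16.2) had a read. Plate columns 1 to 6 and 7 to 12 differed, with 8.33% and 26.9% in D1 and 0% and 17.4% in D2.

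**Figure D1:**
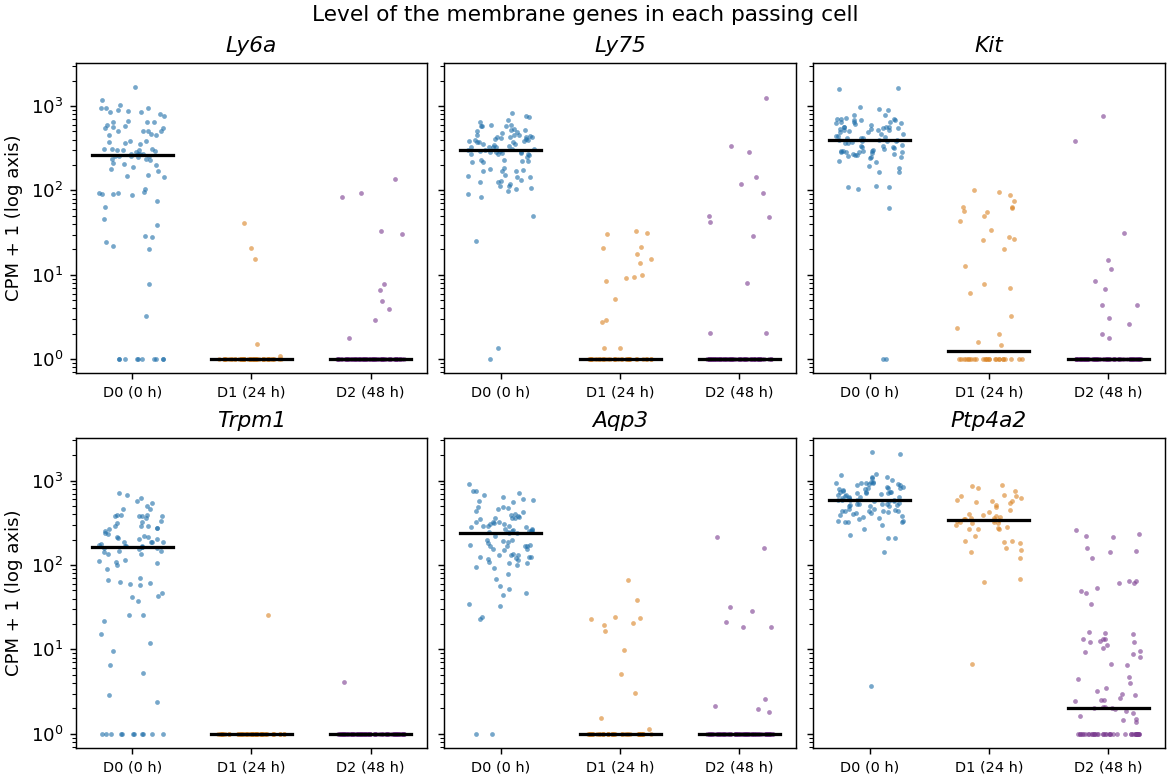
Level of each of the 6 genes in each passing cell on a log axis of CPM + 1, by label, with a point for each cell and a black bar at the median (90 cells of D0, 50 of D1, 93 of D2). The bulk of D1 and D2 cells lies at 0 for Ly6a, Ly75, Trpm1 and Aqp3, whereas Ptp4a2 stays at a median of 345 CPM in D1 and has a median of 1.03 CPM in D2.

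Ptp4a2 was the only one of the 6 genes whose D1 levels were near those of D0, on a plate where time and the source of the cells cannot be told apart. It ran from 2.74 over a median of 590 to 2194 CPM in D0 (mean 646 ± 333) and from 5.71 over 345 to 893 CPM in D1 (mean 384 ± 210), so the D1 range lay within that of D0. In D2 it ran from 0 over 1.03 to 260 CPM (mean 22.9 ± 54.4). Of 50 D1 cells, 16 reached the 25th percentile of D0, 431 CPM, and no D2 cell did. At equal depth 98.9% of D0 cells (93.96 to 99.97), all 50 D1 cells (92.9 to 100) and 39.8% of D2 cells (29.8 to 50.5) had a read. The D2 share ran from 17.2% with 5 reads required to 59.1% on all reads. The log2 ratio was -0.74 in D1 over D0, rank 2615 among the falls, and -4.32 in D2 over D0, the third. Its D2 over D1 ratio was -3.58, which rests on the same low D2 mean that put it among the chosen genes and is no separate evidence. D2 is also the label with fewer genes per cell, and the bearing of that on Ptp4a2 was not tested.

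Between D1 and D2 the other 5 genes were low in both. Kit stood at -0.29 in D2 over D1 and passed the filter on detection, but at -0.91 without 1 cell and -1.34 in inner wells. The ratios of Ly75, Ly6a, Aqp3 and Trpm1 were 1.31, 0.31, 0.04 and -0.06, for genes under the filter of 50% of cells in either label. The Ly75 ratio dropped to 0.65 without the highest D2 cell, and the signs for Kit, Aqp3 and Trpm1 turned under other settings. Of the 6 genes, 1 was 4-fold or more lower in D2 than in D1, where 1.23% of the 9855 genes tested were.

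In D1 over D0, 5 of the 6 genes were 4-fold or more lower, beside 2.28% of 10494 genes, and in D2 over D0 all 6 were, beside 4.11% of 8822 genes. The contrasts share the D0 cells and the genes were picked for these falls, so nothing is read from those counts. Medians of all genes were -0.13 and -0.16 on the same scale. In D1 over D0, 239 genes were lower and 117 higher by that fold, and 161 and 151 with TMM factors, which move the median to -0.01 and leave the falls of Ly6a, Ly75, Kit, Trpm1 and Aqp3 between -4.76 and -3.82. In D2 over D0 the split was 363 to 53, and 247 to 97 with TMM factors. Just inside and outside the chosen genes, the ranked D1 falls were Ly6a, Tfcp2l1 at -4.70, Ly75, Trpm1, Aqp3, Kit, Plagl1 at -3.91 and Ctsc at -3.88. Those of D2 were Plagl1 at -5.16, Ly6a, Ptp4a2, Kit, Trpm1, Dst at -4.20, Aqp3 and Sfrp1 at -3.94.

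**Figure D2:**
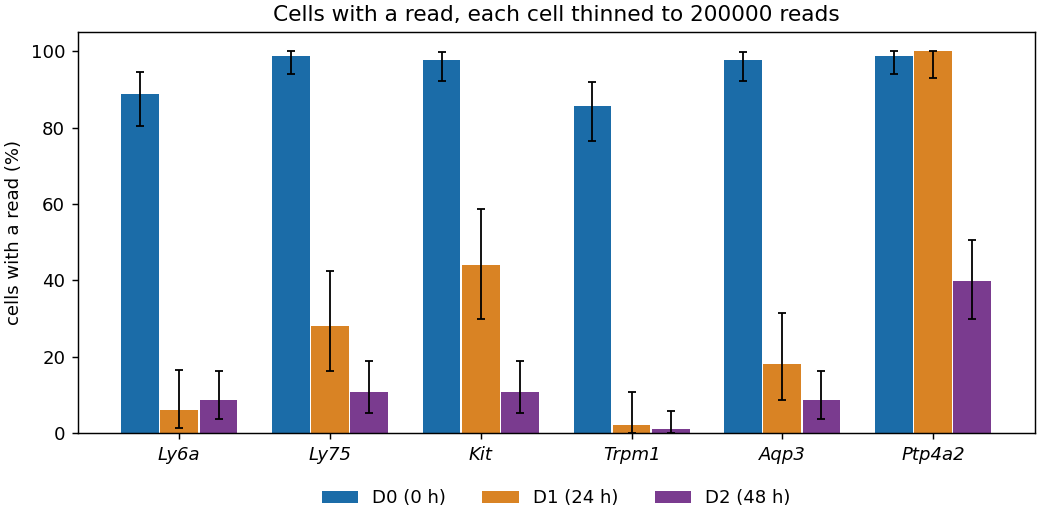
Share of passing cells with at least 1 read of each gene after thinning every cell to 200000 reads, in percent. Error bars are exact 95% intervals for error in counting cells only. D0 shares lie between 85.6% and 98.9%, and in D1 Ptp4a2 at 100% stands above Kit at 44%, Ly75 at 28% and the other genes.

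Most D0 cells held the 6 genes together, and few later cells held more than 3. The genes were chosen for low means after D0, so lower counts per cell there follow from the choice and are a description. D2 cells also held fewer genes of any kind at equal depth, with a median of 3945 against 7794 in D0. At equal depth, 88 of 90 D0 cells (97.8%, 92.2 to 99.7) had a read of 4 or more of them, against 1 of 50 D1 cells (2%, 0.0506 to 10.6) and 2 of 93 D2 cells (2.15%, 0.262 to 7.55). The median was 6 genes in D0, 2 in D1 and 1 in D2, and 42 D2 cells had none. In D1 no cell had none, since every D1 cell had Ptp4a2. The D1 cell with 4 had Kit at 55.2, Trpm1 at 24.8, Aqp3 at 37.8 and Ptp4a2 at 384 CPM. Without the cells whose Hprt detection differed from most of their label, the shares with 4 or more were 97.5% in D0, 2.08% in D1 and 1.16% in D2.

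**Figure D3:**
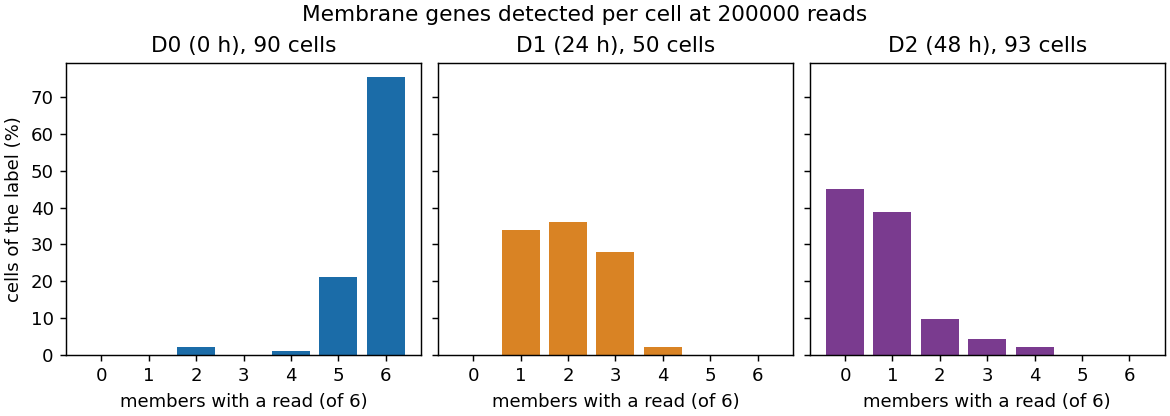
Percent of passing cells by how many of the 6 genes had a read after thinning to 200000 reads, in a panel for each label. D0 cells pile up at 6 (75.6%), D1 cells at 1 to 3 and D2 cells at 0 and 1.

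Some D2 cells had a gene at a level common in D0. Cells were not followed over time, so kept means only such a level here. How many D2 cells hold other genes in this way was not counted. Leaving out Ptp4a2, 8 of 93 D2 cells (8.60%, 3.79 to 16.2) had at least 1 of the 5 genes at or above its D0 25th percentile, against 0 of 50 D1 cells (interval up to 7.11%). Kit was kept in 2 of these D2 cells, at 387 and 755 CPM, and Ly75 in 3, at 288, 337 and 1233 CPM. Aqp3 was kept in 2, at 156 and 213 CPM, and Ly6a in 2, at 91.8 and 136 CPM, whereas Trpm1 was kept in none. Only 1 of the 8 cells kept more than 1 gene, Kit together with Aqp3. The cell with Ly75 at 1233 CPM had 2209 detected genes, close to the filter limit of 2000. The cell with Ly6a at 91.8 CPM lies in plate column 12 and has Hprt reads, and the cell with Kit and Aqp3 lies in column 11.

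Low levels of Ly6a in D2 followed the position on the plate. Of 11 D2 cells with any Ly6a read, 6 were among the 8 passing cells of plate column 12, 2 among the 7 of column 11 and 3 among the 78 of columns 1 to 10. Hprt reads in D2 were in the same columns, in 6 cells of column 12 and 1 of column 11, and all 7 of those cells had Ly6a reads, at 0.797 to 91.8 CPM, against 4 of the 86 other D2 cells. Aqp3 had reads in 5 of the 7 and 6 of the 86, Ptp4a2 in 7 and 48, and Ly75 in 0 and 13. The 7 cells had a median of 7618 detected genes and the 86 a median of 4734. In D0, Hprt was likewise in 6 of the 8 cells of column 12, 2 of the 8 of column 11 and 1 of the 74 cells of columns 1 to 10. Without the 7 cells, the share of D2 cells with a read at equal depth was 3.49% for Ly6a and for Aqp3, and the log2 ratios of D2 over D0 were -4.79 and -4.21. This split was made after the values were seen, and whether reads of other wells or plates were assigned to these wells was not tested.

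Within D0 the 6 genes varied with little relation to each other. The SD between cells as a percentage of the mean was 95.8% for Ly6a, 92.5% for Trpm1, 72.5% for Aqp3, 60.96% for Kit, 55.9% for Ly75 and 51.6% for Ptp4a2. Over 90 D0 cells thinned to equal depth, Spearman's rho of the 15 pairs had a median of 0.01 and ran from -0.16 for Ly6a with Ly75 to 0.34 for Ly75 with Trpm1. All cells come from 1 culture and 1 plate and share its depth and quality, and these values are a description. Pearson's r of log2(CPM + 10) had a median of 0.24, and -0.004 without the 2 D0 cells of 4000 or fewer detected genes. The rho of Ptp4a2 with the mitochondrial share was 0.44. That of Kit with the number of detected genes was 0.32 on all reads and 0.20 with genes counted at equal depth.

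**Figure D4:**
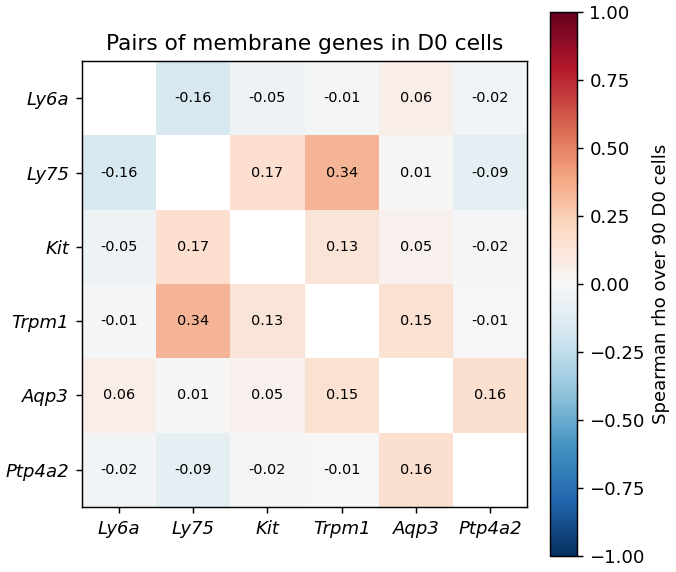
Spearman's rho of each pair of the 6 genes over 90 D0 cells thinned to 200000 reads, as a colour scale from -1 to 1 with the value printed in each cell of the grid. Values run from -0.16 to 0.34, with a median of 0.01.

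The genes most like each of the 6 across D0 cells, taken from 7505 genes detected in 50% or more of them at equal depth, were mostly weakly related. Those named from the 7505 are the 3 highest for each gene, so a raised rho follows in part from the pick and was not tested. Median rho over the 7505 genes ran from 0.01 for Ptp4a2 to 0.06 for Kit. Ly6c1, the near copy of Ly6a, was below that detection at equal depth and had a rho of 0.52 with Ly6a on all reads. Among the 7505, only Slc25a36, a mitochondrial nucleotide carrier (rho 0.52 with Trpm1), and Smarca5, a chromatin remodelling ATPase (rho 0.50 with Ptp4a2), passed 0.5. Trpm1 was followed by Rsrp1 and Prrc2b (0.50 and 0.46) and Ptp4a2 by Zranb2 and Matr3 (0.49 and 0.47). For the rest the nearest of the 7505 were weak, with Sdad1, Cog8 and Aagab for Ly6a (0.43, 0.39 and 0.39) and Gcnt2, Gigyf2 and Fxyd6 for Ly75 (0.48, 0.44 and 0.43). Kit had Myef2, Srpr and Prdm10 (0.44, 0.41 and 0.41), and Aqp3 had Psap, Lrrc2 and Stat2 (0.48, 0.45 and 0.44). No gene was nearest to more than 1 of the 6.

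The levels of relatives are given beside the 6 genes, which were picked for large falls, so that a smaller fall of a relative follows from the choice. Of 15 Ly6 family genes 3 could be compared between D0 and D1, and Ly6a was the only one 4-fold lower on the scale of mean CPM + 10, which holds down the ratio of low genes such as Ly6c1 (-0.82). Ly6e, a GPI-anchored relative, had means of 76.7, 38.4 and 53.5 CPM in D0, D1 and D2. Ly6c1, a near copy, had 7.65, 0 and 0.127 CPM, and 69 of its 70 D0 cells also had Ly6a, with Ly6c1 reads amounting to 2.49% of Ly6a reads. In the 71 D0 cells with 100 or more Ly6a reads the median of this percentage was 1.08%, with a 10th to 90th percentile range of 0.144% to 6.50%. Whether some of these reads stem from Ly6a is uncertain, since the handling of reads shared between copies is not given in the sources used here. Of 17 GPI anchor synthesis genes compared, Piga, which starts anchor assembly, was the only one 4-fold lower in D1 and in D2, with means of 213, 20.9 and 39.4 CPM. Over all genes 2.28% and 4.11% were, and nothing is read from a count of 1 in 17. Of the genes listed beside Ly75, the C-type lectin gene Cd302 had 15.7, 5.90 and 8.06 CPM. Mrc1 had 0, 4.11 and 0.733 CPM, Mrc2 0.173, 1.29 and 1.99 CPM, and Pla2r1 0.00221, 0 and 0 CPM.

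The channels and Kit had few detected relatives. Trpm7, a channel with a kinase domain, was the TRPM gene of the highest level per kilobase in D0 (43.03 CPM per kb against 12.5 for Trpm1), with means of 487, 101 and 150 CPM and log2 ratios of -2.16 and -1.63 over D0. Trpm4 had 13.02, 7.84 and 18.1 CPM. Aqp3 was the only one of 11 aquaporins that passed the detection filter, and the others stayed at or under 2.22 CPM in every label. Kit was the only one of 5 class III receptor tyrosine kinases to pass in comparisons with D0. Its ligand Kitl had 1.22, 4.32 and 0 CPM. Of 9 genes of KIT signalling compared, none was 4-fold lower in D1 and 1 in D2, namely the exchange factor Sos1 (76.5, 15.2 and 2.14 CPM). Beside 2.28% and 4.11% of all genes, nothing is read from 1 in 9.

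Among the phosphatases, Ptp4a1 had means of 119, 32.8 and 24.1 CPM and stood at -1.60 in D1 and -1.92 in D2 over D0, where Ptp4a2 stood at -0.74 and -4.32. Ptp4a3 had 13.02, 16.3 and 10.9 CPM. None of 6 prenylation enzymes and neither of the 2 CNNM magnesium transport partners compared was 4-fold lower in D1 or D2, counts too small to set against the 2.28% and 4.11% of all genes. Mitf, the melanocyte factor whose motif letters are in the Trpm1 window, had 120, 0.365 and 3.10 CPM and log2 ratios of -3.65 and -3.31, while the related Tfe3 had 38.2, 81.4 and 43.4 CPM. Over D0 cells Mitf had a rho of 0.23 with Trpm1 and 0.10 with Kit, and both are weak.

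**Figure D5:**
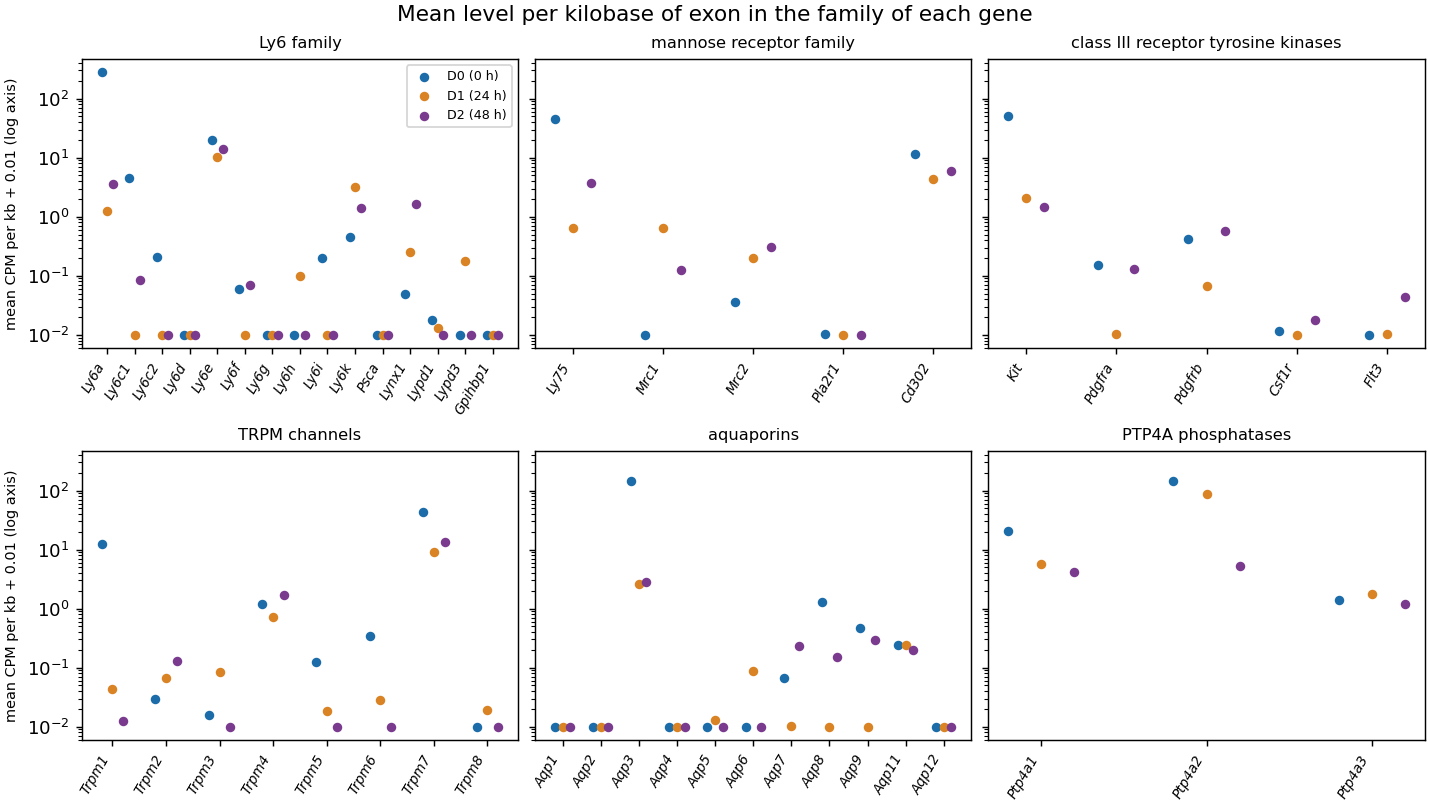
Mean CPM per kilobase of exon + 0.01 on a log axis for each gene of the families of the 6 genes, by label, with a point for each label and points at 0.01 for genes without a read. Ly6a, Ly75, Kit and Aqp3 are the highest of their family in D0, Trpm1 lies below Trpm7, and Ptp4a2 is the highest PTP4A gene per kilobase in all 3 labels. In D2 its 5.23 CPM per kb lies close to the 4.19 of Ptp4a1, whose mean CPM there is the higher (24.1 against 22.9).

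Other surface genes and naive factors were not picked for their falls, so nothing is read from how they compare with the 6 genes. Over all genes compared, 2.28% were 4-fold lower and 1.11% higher in D1, and 4.11% lower and 0.601% higher in D2. Of 14 ES cell surface genes compared, 2 were 4-fold lower in D1, the adhesion protein Cdh1 (-2.15) and the alkaline phosphatase Alpl (-2.61), and 1 was higher, the adhesion protein Epcam (2.72). In D2, Cd24a was lower (-2.92) and Epcam higher (2.01). Of the naive factors, 6 of 14 were 4-fold lower in D1 and 4 of 13 in D2, and none was higher. The list medians were -0.90 and -1.24 for surface genes and -1.80 and -1.35 for naive factors, beside -0.13 and -0.16 for all genes.

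Some of the 6 genes are markers of other cell types, whose markers were checked in the same cells. Of 9 fibroblast or feeder markers 5 had a read in D0, with Col1a2, Col3a1, Dcn and Postn at 0, and the summed level ran from 0 over 0 to 129 CPM in D0, 0 over 0.122 to 112 in D1 and 0 over 0 to 288 in D2. Of the 9 haematopoietic markers with a row of counts, 7 had a read in D0, with Ptprc and Hba-a1 at 0, and the sum ran from 0 over 2.99 to 75.2, 0 over 3.82 to 39.6 and 0 over 0 to 298 CPM. Of 7 melanocyte markers 4 had a read in D0, with Tyr, Tyrp1 and Sox10 at 0, and the sum ran from 0 over 128 to 399.6, 0 over 20.7 to 103 and 0 over 0 to 939.5 CPM. The mean of Mitf alone was 120 CPM in D0. All 7 germ cell markers had reads in every label, and the sum ran from 0 over 164 to 2393, 0 over 94.1 to 2051 and 0 over 38.3 to 1615 CPM. The primitive endoderm markers had a median of 0 in every label and highest sums of 181, 21.7 and 93.2 CPM. Those of trophectoderm ran from 0 over 69.7 to 976, 0 over 10.8 to 1557 and 0 over 0 to 9105 CPM. The part of these other markers in the levels of the 6 genes was not tested.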

How the data were processed

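Reads had been aligned to GRCm38 with HISAT2, and the table the authors deposited was taken as raw counts, 1 column for each of 288 wells. The annotation and counting tool are not given in the sources used here. The sample descriptions name a normalized table, but the deposited values are whole numbers with unequal totals. From the deposited counts, CPM was computed here with each cell's total, and means weight cells equally. Log2 ratios compare mean CPM + 10, for genes detected in 50% or more of the cells under 1 of the compared labels, and a fold of 4 marks a gene as lower or higher. Shares used cells thinned to 200000 reads. With 1 culture per label no test was run. The study's methods print the mitochondrial limit as 0.15% and state another number of kept cells. It was read here as a fraction, since only 1 of the 233 passing cells lies under 0.15%.

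The members and lists were chosen with earlier results of these data known. The genes named are the 6 members, fixed lists of relatives, pathways, surface genes and markers, the 8 largest falls over D0 with an established symbol, and the 3 genes nearest each member by rho. The splits by Hprt and plate column in D2 and the motifs were added after values were seen. Lengths are exon unions of GENCODE M21. Scaling factors came from edgeR 4.0.16 in R 4.3.3, and other steps used scipy 1.17.1, pandas 2.3.3 and numpy 2.4.6 under Python 3.11.15. Alternatives covered cell filters, pseudocounts, scaling, thinning, detection limits, plate columns and leaving out each cell. Scripts were tested on simulated data. No authors' comparison was used, and methylation data were not used here.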

Additional observations from a re-analysis of the deposited data

Results flagged for a closer look

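Wells that failed the filter were not used above, and some held reads of the 6 genes beyond the limit that 3 reads set. In D0 all such reads came from 1 of the 6 failing wells. Summed over those 6 wells the level was 174.6 CPM for Ly6a, 331.7 for Ly75, 157.1 for Kit, 87.3 for Trpm1, 261.9 for Aqp3 and 628.5 for Ptp4a2, where 3 reads would give 26.2 CPM. In the 46 failing wells of D1 the summed level was 229.2 CPM for Ptp4a2, from 82 reads in 11 wells, and 11.2 CPM for Kit, from 4 reads in 2 wells, where 3 reads would give 8.39 CPM. Ly6a, Ly75, Trpm1 and Aqp3 had 0 reads there in 357724 reads. In the 3 failing wells of D2 each of the 6 genes had 0 reads in 1459044 reads.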

How the results depend on the processing

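Of 204 alternative values of the log2 ratios over D0 for the 6 genes, 0 changed sign. The genes were chosen for falls over D0, so an unchanged sign is no separate evidence. Over all comparisons, 211 of 270 alternative log2 ratios moved beyond the interval from read counts, 6 changed sign and 53 stayed within it. Of 36 extremes with 1 cell left out, 30 moved, 2 changed sign and 4 stayed. With all settings the ratios over D0 ran from -7.82 to -4.22 for Ly6a, -12.4 to -3.84 for Trpm1, -6.19 to -2.66 for Ly75, -5.36 to -3.25 for Kit and -5.78 to -3.67 for Aqp3. For Ptp4a2 the D1 values lay between -1.10 and -0.51, the D2 values between -5.77 and -3.92. The ratios of D2 over D1 were less stable. Kit turned to 0.32 with reads summed over cells, Aqp3 to -0.084 with log-normalized values, -0.48 in plate columns 1 to 6, -0.056 in inner wells and -0.029 without cells of discordant Hprt, and Trpm1 to 0.0097 in columns 1 to 6. Kit was also -0.99 with no filter on cells and -1.34 in inner wells. Leaving out each cell in turn, Kit ran from -0.91 to -0.20, Aqp3 ran from -0.19 to 0.17 and Trpm1 from -0.070 to 0.0049. The number of all genes 4-fold lower rested on the pseudocount and the summary. It was 758, 1022 and 548 for D1 over D0, D2 over D0 and D2 over D1 with a pseudocount of 1, 939, 1170 and 960 with none, and 364, 2614 and 1901 with medians over cells. It was also 474 in D1 over D0 without a filter on cells and 200 in D2 over D1 in columns 1 to 6. Of the 6 genes, 2 were lower in D2 than in D1 with no pseudocount. The share of cells with 4 or more genes rose in D1 to 8% on all reads and 4% with another seed for thinning, and became 0% with 5 reads required or in columns 1 to 6. It became 0% in D2 with thinning to 100000 reads, 5 reads or 10 CPM required, or in columns 1 to 6. The median of the D0 pairs was 0.24 as Pearson's r, -0.028 in cells over 1000000 reads, -0.0070 in columns 1 to 6, and, chosen after seeing the data, -0.020 in the 88 cells over 4000 genes and -0.0041 as Pearson's r there. The causes of these shifts were not tested. Of 162 alternative shares of cells, 28 moved beyond the interval from counting cells. No paired analysis was possible because replicate numbers only order the cells of a plate, and the same number in another label is a different cell of a different culture. Without molecular identifiers, duplicated reads inflate depth by an unknown amount, and at 200000 reads a cell without a read may still express a gene.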
